A study of Rattus norvegicus with 8 samples.

Results

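The genes of the constitutive proteasome and of the ubiquitin-conjugating enzymes were followed across 4 groups of rat C6 glioma arrays. Members were all probe sets with a single gene symbol starting with Psma, Psmb, Psmc, Psmd, Psme or Ube2, without the immunoproteasome subunits Psmb8, Psmb9 and Psmb10. The rule found 36 of the 4737 genes named by a single symbol, read by 60 of the 8740 probe sets that were not array controls. A further 6 probe sets assigned to several symbols, at least 1 of them of these families, were left out.

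The proteasome is the protease complex that degrades proteins marked with ubiquitin. Its 20S core is a stack of rings in which alpha subunits (Psma) gate the chamber and beta subunits (Psmb) form it, some of them carrying the active sites. The 19S regulatory particle caps the core, with ATPases (Psmc) that unfold substrates and non-ATPase subunits (Psmd) that bind and process ubiquitin chains or hold the lid together. Activators (Psme) open the core without the 19S particle. Ubiquitin-conjugating enzymes (Ube2) take ubiquitin, or a related modifier, from an activating enzyme and pass it on with the help of a ligase. In cells exposed to interferon gamma, Psmb8, Psmb9 and Psmb10 replace the constitutive active subunits, and Psme1 and Psme2, which form the PA28 activator, are induced with them.

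Total RNA of the C6 rat glioma cell line, an established astrocyte-like tumour line, was hybridised to 8 Affymetrix arrays, described in the labels by the word migration. The titles gave 4 groups of 2 arrays each, from 2 sets of cells, C6 and C6SPGFP, each divided into slow and fast. The labels do not say what C6SPGFP stands for, how slow and fast cells were told apart, whether C6SPGFP cells are 1 clone, or whether replicates came from separate cultures. The p-values therefore measure only the spread between these arrays, which may be technical, and 2 arrays a group limit their precision. The arrays measure bulk RNA, in which fewer cells of a type and less RNA per cell cannot be told apart.

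Because the deposited signals of C6SPGFP fast replicate 1 had a trimmed mean of 500.5, against 100.1 to 105.8 for the other 7 arrays, quantile normalisation preceded any comparison. Without that step, the median of all tested probe sets moved by 1.04 (log2) in C6SPGFP fast minus slow cells and by 1.11 in C6SPGFP minus C6 fast cells. Every direction below is that of the normalised signals. Replicates correlated at 0.969 to 0.978 over probe sets. Of 8 genes listed for C6 glioma identity 7 were measured. Gfap was not among them. Their summed signal was 5485 to 5596 in C6 slow, 3172 to 3457 in C6 fast, 7611 to 7703 in C6SPGFP slow and 7251 to 7430 in C6SPGFP fast cells. Vim was the largest part of the sum, with 3082 and 2681 in C6 slow and 2594 and 2723 in C6 fast cells. From C6 slow to C6 fast cells the mean of Sox10 went from 304 to 1.56. The brightest probe sets of Ptprz1 and S100b went from 84.7 to 1.46 and from 408 to 65.9. Of this list, 6 genes were called lower in fast than slow C6 cells, and 6 higher in C6SPGFP than C6 fast cells, where the other measured gene, Glul, was called lower (-0.68, log2). The summed signal of 9 of 11 microglia and blood genes was 225 to 287 on the C6 arrays and 318 to 401 on the C6SPGFP arrays, with Cd14 called higher and Cd37 lower in C6SPGFP fast than C6 fast cells. Cd37 was also called higher in fast than slow C6 cells (1.41). Summed signals over the 8 arrays were 494 to 584 for 7 of 9 endothelial and mural genes and 79.6 to 151 for 6 of 8 neuronal genes. Of the neuronal genes, Gap43 was called higher in C6SPGFP than C6 fast cells (0.94). The summed signal of 12 of 24 proliferation genes was 7100 to 7630 in the slow arrays of both sets and 8358 to 8994 in the fast arrays. Among them a Pcna probe set was called higher in C6SPGFP than C6 fast cells (0.51). A Ccnb1 probe set was called lower in C6SPGFP than C6 slow cells (-0.97). The part of these shifts in the results below was not tested.

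Of the 60 members, 55 had a mean normalised signal of at least 8 and were tested, covering 34 genes. The other 5 stayed below it: a second probe set each of Psma6 (0.79 to 9.66), Psmd1 (1.43 to 8.51) and Psme1 (1.26 to 3.13), and the only probe sets of Ube2m (4.05 to 8.97) and Ube2d2b (0.65 to 10.3). No rule on background was applied to these dim signals. The tested members comprised 12 probe sets of the alpha ring, 11 of the beta ring, 6 of the 19S ATPases, 10 of other 19S subunits, 4 of activators and 12 of conjugating enzymes.

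The tested members varied little over the 8 arrays. The ratio of the highest to the lowest array (signal plus 8) had a median of 1.48 and ran from 1.22 to 4.61, and 46 of 55 members (83.6%) stayed below 2, against a median of 1.91 and 54.6% over all tested probe sets. The beta ring was below 2 in 11 of 11 probe sets (median 1.37) and the 19S ATPases in 6 of 6 (median 1.46). The alpha ring stayed below it in 10 of 12, the other 19S subunits in 8 of 10, the conjugating enzymes in 9 of 12 and the activators in 2 of 4 (median 2.06). The members were also brighter, with a median mean signal of 569 against 76.9, and the part of brightness in their narrow range was not tested. On C6 slow replicate 1 the members' median deviation from their own mean was 0.13 (log2), the highest of the 8 arrays, and on the others it ran from -0.07 to 0.09.

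**Figure D1:**
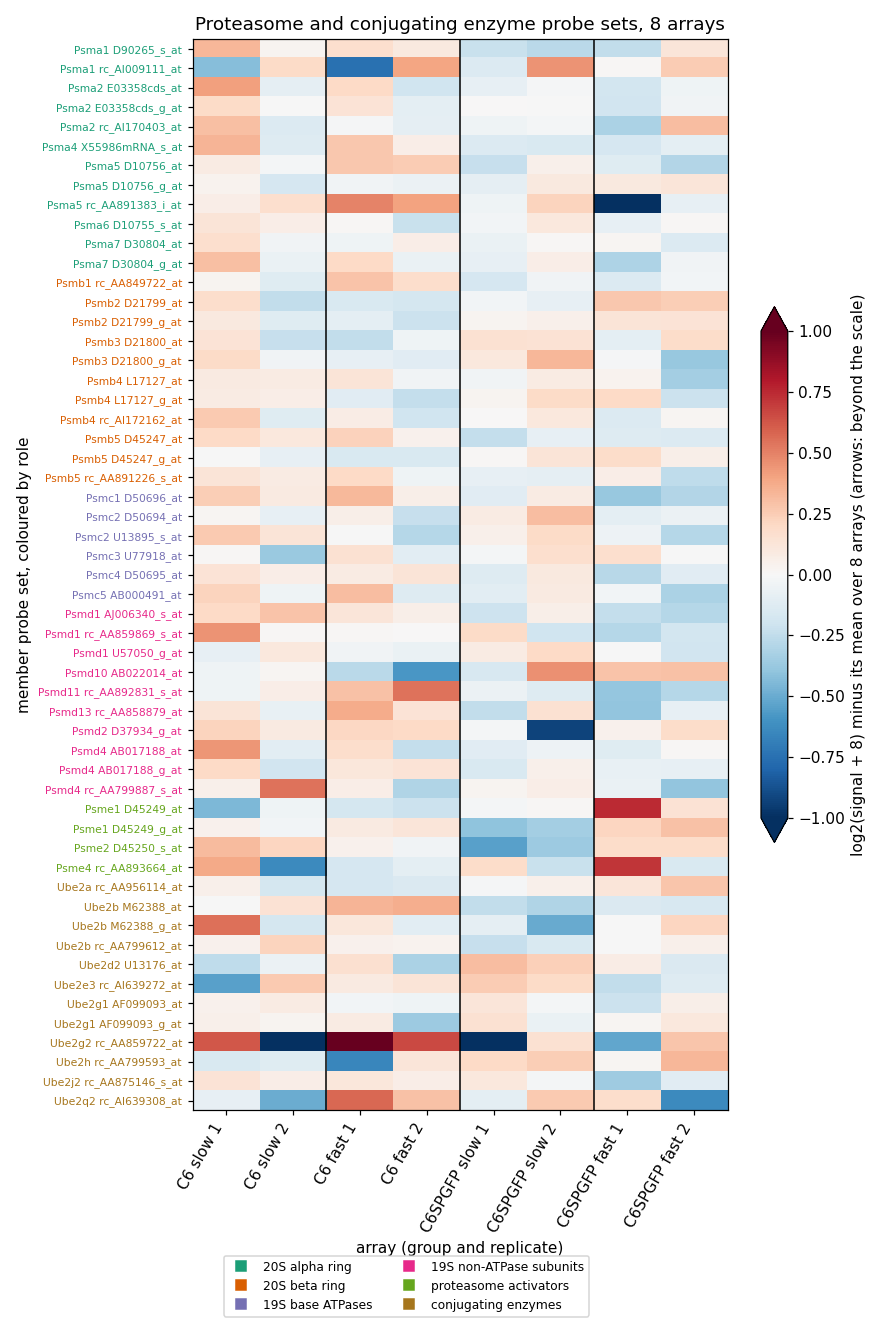
Each row is 1 of the 55 tested member probe sets, coloured by role, and each column 1 of the 8 arrays; colour gives log2(signal + 8) minus the probe set's mean over the arrays. Most cells are pale, while Psme2 and a Psme1 probe set are low in both C6SPGFP slow arrays and Ube2g2 swings between replicates.

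The arrays were compared between fast and slow cells within each set, between the sets at each speed, and for the difference of the fast minus slow changes. Comparisons share groups of arrays and are not independent. Calls are at an adjusted p under 0.05 from limma, with Benjamini-Hochberg adjustment over the 6684 probe sets tested. In C6, 0 of 55 members were called between fast and slow cells, where 6.66% of all tested probe sets were called. There, 1 member (1.82%) had an unadjusted p under 0.05, against 19.4% of all tested probe sets. In C6SPGFP, 1 member was called between fast and slow cells, against a background of 1.39%. An unadjusted p under 0.05 was reached there by 4 members (7.27%) and by 9.69% of all tested probe sets. The difference of the changes was called for 1 member (background 3.82%). Between the sets, 1 member was called in slow cells (background 6.34%) and 3 in fast cells (background 15.6%), a share of 5.45% of the members. Those 3 were all lower in C6SPGFP, a direction in which 7.3% of all probe sets were called. Between the sets in fast cells 15 members (27.3%) had an unadjusted p under 0.05, near the 28.9% of all tested probe sets. In slow cells 6 members did (10.9%, all 21.0%), and for the difference of the changes 3 (5.45%, all 15.4%).

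For most members a 2-fold change lay outside the interval. The 95% interval of the change lay inside 2-fold in either direction for 52 of 55 members in C6 fast minus slow cells (94.5%), against 64.1% of all tested probe sets. For C6SPGFP fast minus slow cells it did so for 48 (87.3%, all probe sets 72.4%), for C6SPGFP minus C6 slow cells for 48 (all 63.2%) and for fast cells for 46 (83.6%, all 56.7%). For the difference of the changes the number was 41 (74.5%, all 36.6%). The tighter bound of 1.5-fold held 34 members in C6 fast minus slow cells and 32 in C6SPGFP. The median SE of a member's change was 0.16 (log2), against 0.24 over all probe sets.

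The median change of the members was near that of all probe sets in each comparison. It was -0.05 (log2) in C6 fast minus slow cells (all probe sets 0.01), -0.05 in C6SPGFP fast minus slow cells (all -0.02), -0.06 between the sets in slow cells (all 0.01) and -0.07 in fast cells (all -0.03). Arrays of the groups compared did not overlap for 18 members in C6 fast minus slow cells (32.7%), where 45.1% of all probe sets did not overlap. The members' share was 41.8% in C6SPGFP fast minus slow cells (background 44.1%), 32.7% between slow cells (background 51.4%) and 49.1% between fast cells (background 55.6%).

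**Figure D2:**
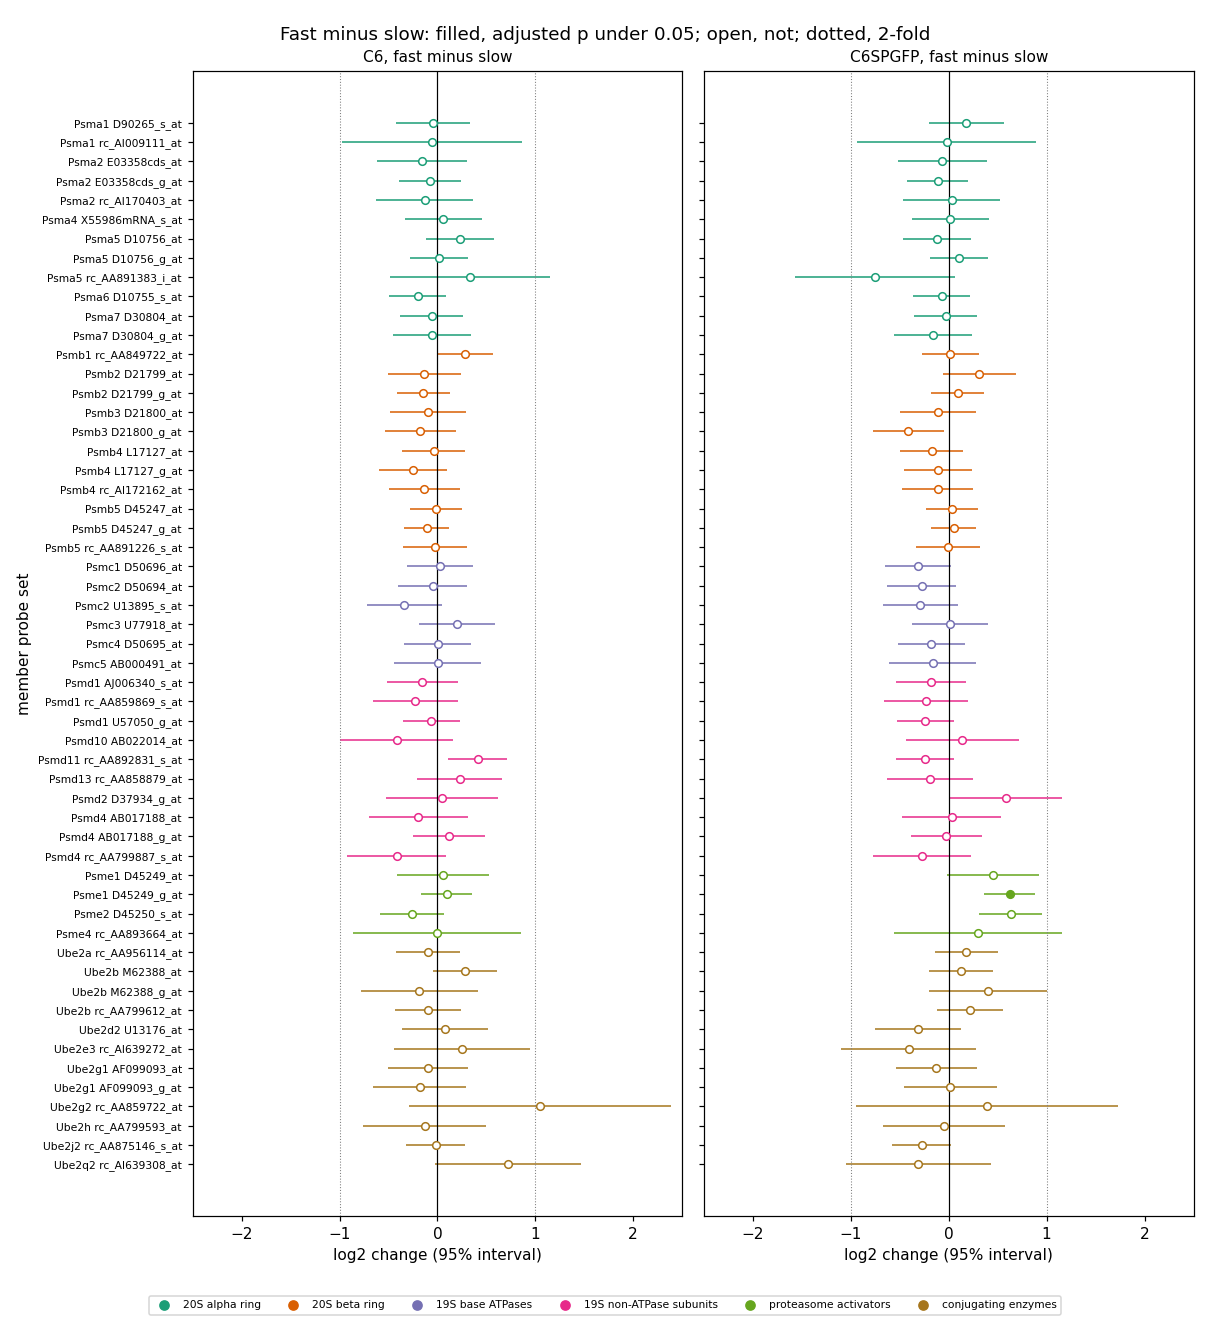
Points give the log2 change between fast and slow cells for each tested member, left in C6 and right in C6SPGFP, with the 95% interval; filled points have an adjusted p under 0.05 and dotted lines mark 2-fold. The left panel has no filled point, and the right has 1, a Psme1 probe set at 0.62, beside a Psme2 point at 0.63 that is open.

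The proteasome activators had the widest range over the arrays by role median, and carried the calls that involve slow C6SPGFP cells. The highest array was C6SPGFP fast replicate 1 for Psme4 (ratio of highest to lowest 2.55) and for Psme1 probe set D45249_at (2.30). Psme1 and Psme2 encode the alpha and beta subunits of PA28, and Psme4 encodes PA200, a single-chain activator. In C6SPGFP all 4 of their tested probe sets had higher means in fast than in slow cells, with a median of 0.54 (log2), where 47.2% of all probe sets had a positive change. Without C6SPGFP fast replicate 1, 3 of the 4 did (median 0.39). In C6 the same probe sets had changes from -0.26 to 0.10. The annotation places Psme1 and Psme2 close together on rat chromosome 15. Their upstream stretches of 250 bases, before the annotated starts (RefSeq, GRCr8), are shown because these 2 genes carry the calls among activators. Psme1 lies on the plus strand at chr15:33038721-33038970 and Psme2 on the minus strand at chr15:33052752-33053001. Capitals mark an interferon-stimulated response element, searched on both strands as GAAA, any 2 bases, GAAA.
Psme1: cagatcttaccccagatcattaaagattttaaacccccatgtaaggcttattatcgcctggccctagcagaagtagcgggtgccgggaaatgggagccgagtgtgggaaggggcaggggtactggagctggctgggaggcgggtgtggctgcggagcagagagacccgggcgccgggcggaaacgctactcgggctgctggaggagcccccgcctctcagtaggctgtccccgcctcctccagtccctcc
Psme2: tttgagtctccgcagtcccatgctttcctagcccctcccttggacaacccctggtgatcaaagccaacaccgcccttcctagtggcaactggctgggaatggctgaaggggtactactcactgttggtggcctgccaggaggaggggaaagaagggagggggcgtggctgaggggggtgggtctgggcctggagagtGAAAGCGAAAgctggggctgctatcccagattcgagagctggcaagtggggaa

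That element was found upstream of Psme2, Psma4 and Psmb3, 3 of the 24 proteasome genes with an upstream sequence, of 0 of 11 conjugating enzyme genes and of 3.41% of all 33469 upstream sequences in the table. Psma7 had no entry. The interferon gamma activated site, TTCNNNGAA, was in none of the 24 or the 11, and in 7.67% of all. The antioxidant response element, TGACNNNGC, was in 4 of 24 (Psmb2, Psmb5, Psmd1 and Psme4) and 3 of 11 (Ube2d2, Ube2g2 and Ube2q2), and in 10.1% of all. A CCAAT box was in 12 of 24 and 4 of 11, and in 34% of all. A match describes letters in the window and is not a shown binding site.

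Psme1 rose in fast C6SPGFP cells by probe set D45249_g_at. Its signals were 869 and 828 in C6 slow, 896 and 919 in C6 fast, 636 and 665 in C6SPGFP slow and 981 and 1034 in C6SPGFP fast cells. The C6SPGFP slow arrays were the lowest of the 8 and the C6SPGFP fast arrays the highest. Group means in C6SPGFP were 651 ± 20.7 (SD, n = 2) and 1008 ± 37.8, a change of 0.62 ± 0.11 (log2, SE), or 1.54-fold, with an adjusted p of 0.0378 in limma. In C6 the change of this probe set was 0.10, and the difference between the sets was 0.53 ± 0.16 (adjusted p = 0.149). The second tested probe set, D45249_at, gave 983 and 1008 in C6SPGFP slow and 1684 and 1103 in C6SPGFP fast cells, a change of 0.45 ± 0.21 with an adjusted p of 0.544. Between the sets in fast cells it was at 0.64 ± 0.21 (adjusted p = 0.0737), and without C6SPGFP fast replicate 2 at 0.94, past the threshold (0.0272). It read 729 and 968 in C6 slow and 885 and 860 in C6 fast cells, and the 2 probe sets disagreed in sign between the sets in slow cells, at 0.24 and -0.38. The call of D45249_g_at was lost without any 1 of the C6SPGFP arrays: adjusted p was 0.224 and 0.233 without slow replicates 1 and 2, and 0.171 and 0.26 without fast replicates 1 and 2. It was also lost without C6 fast replicate 1 (0.0655) or 2 (0.0646).

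Psme2 was lower in slow C6SPGFP cells than in slow C6 cells, and its change with speed differed between the sets. Its signals were 507 and 470 in C6 slow, 417 and 396 in C6 fast, 275 and 313 in C6SPGFP slow and 460 in both C6SPGFP fast arrays. The C6SPGFP slow arrays stood below the other 6. Group means in slow cells were 294 ± 26.3 (SD, n = 2) in C6SPGFP and 488 ± 25.7 in C6, a change of -0.72 ± 0.14 (log2, SE; 1.65-fold lower) with an adjusted p of 0.022 in limma. With speed, Psme2 changed by -0.26 ± 0.14 in C6 (adjusted p = 0.379) and by 0.63 ± 0.14 in C6SPGFP (adjusted p = 0.092). The difference of these changes was 0.89 ± 0.20, with a 95% interval of 0.44 to 1.35 and an adjusted p of 0.0483. The slow-cell call was lost without C6 slow replicate 1 (0.0926) and C6SPGFP slow replicates 1 (0.145) and 2 (0.092). The call of the difference was lost without any 1 of the 8 arrays: C6 slow 1 (0.117) or 2 (0.0626), C6 fast 1 (0.0863) or 2 (0.12), C6SPGFP slow 1 (0.175) or 2 (0.12), and C6SPGFP fast 1 (0.158) or 2 (0.156). The annotation also lists pseudogenes of Psme1 and Psme2, which the probes may not tell apart from the genes. Psme4 gave 64.3 to 138 in C6 and 88.5 to 177 in C6SPGFP arrays, with no call.

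The immunoproteasome subunits were read beside the activators. Psmb8 had signals of 333 and 352 in C6 slow, 729 and 600 in C6 fast, 188 and 269 in C6SPGFP slow and 386 and 372 in C6SPGFP fast cells. It rose in fast C6 cells by 0.93 ± 0.19 (log2, SE; adjusted p = 0.0237) and its change in C6SPGFP was 0.73 ± 0.19 (adjusted p = 0.179), with no call for the difference (-0.20 ± 0.27, adjusted p = 0.799). Psmb9 by its probe set D10757_g_at gave 119 and 122 in C6 slow, 178 and 205 in C6 fast, 76.0 and 101 in C6SPGFP slow and 196 in both C6SPGFP fast arrays. It rose in fast C6SPGFP cells by 1.09 ± 0.19 (adjusted p = 0.0303), with 0.63 ± 0.19 in C6 (adjusted p = 0.0967). The other Psmb9 probe set was not called, at 0.74 ± 0.25 in C6SPGFP and 0.65 ± 0.25 in C6. Psmb8 and Psmb9 thus read higher in fast cells in both sets. The 2 tested Psme1 probe sets had changes of 0.45 and 0.62 in C6SPGFP. In C6 they were at 0.05 and 0.10 without a call, where 51.6% of all tested probe sets had a positive change. By D45249_at the C6 groups overlapped, with 729 and 968 in slow and 885 and 860 in fast cells. Psme2 read lower in fast C6 and higher in fast C6SPGFP cells. Neither of these Psme2 changes was called alone, while limma called their difference. The Psmb8 call in C6 was lost without C6 slow replicate 1 (0.0992) or 2 (0.0616) or C6 fast replicate 1 (0.116) or 2 (0.0527). The Psmb9 call was lost without C6SPGFP slow replicate 1 (0.191) or 2 (0.104) or C6SPGFP fast replicate 1 (0.183) or 2 (0.204).

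**Figure D3:**
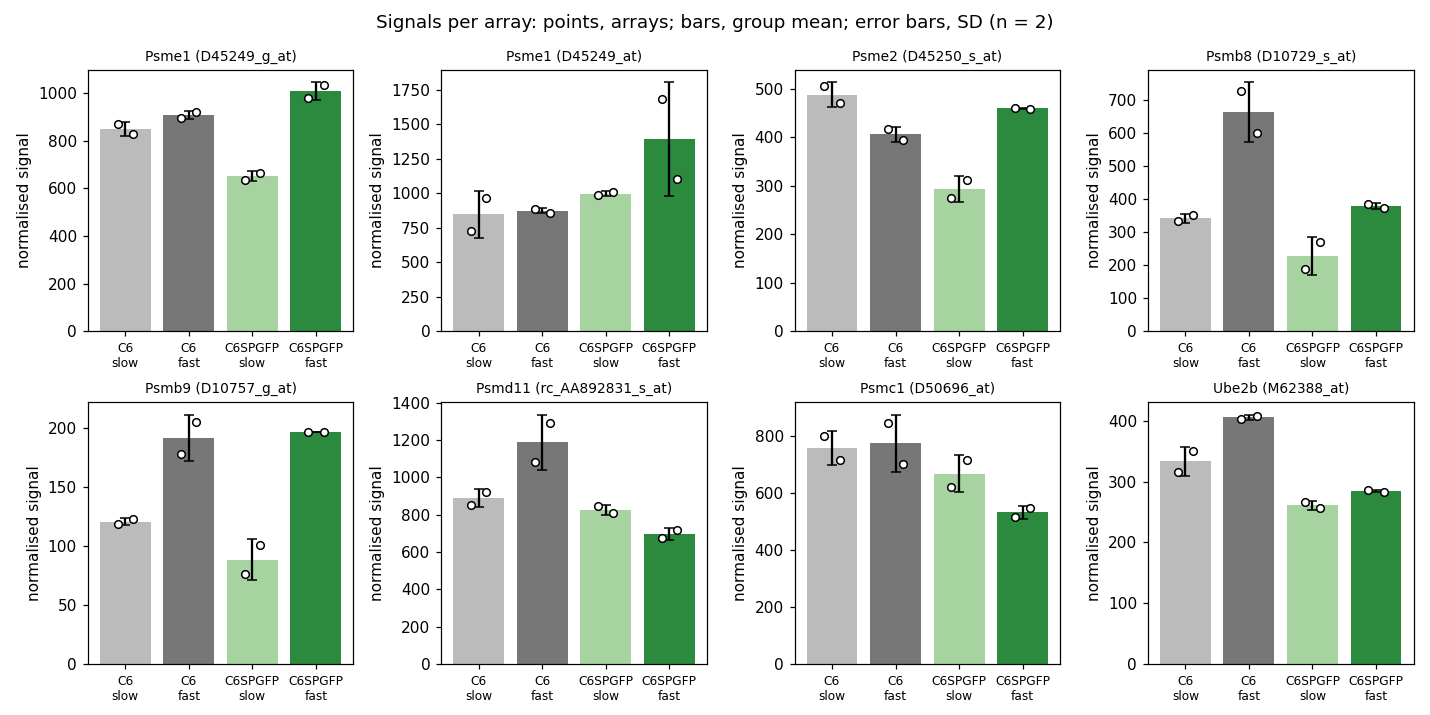
Each panel plots the normalised signal of 1 probe set, for members with a call and for a second Psme1 probe set, Psmb8 and Psmb9; points are arrays, bars group means and error bars the SD of 2 arrays. In Psme1 D45249_g_at, Psme2, Psmb8, Psmb9 and Ube2b the C6SPGFP slow bars are the shortest. In Psmd11 the C6 fast bar is the tallest and the C6SPGFP fast bar the shortest.

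Among the 19S non-ATPase subunits, Psmd11 was lower in fast C6SPGFP than in fast C6 cells. Psmd11 encodes a subunit of the lid of the 19S particle. Its signals were 854 and 924 in C6 slow, 1083 and 1292 in C6 fast, 845 and 808 in C6SPGFP slow and 674 and 721 in C6SPGFP fast cells. The C6 fast arrays were the highest of the 8 and the C6SPGFP fast arrays the lowest. The change between the sets in fast cells was -0.76 ± 0.13 (log2, SE), 1.69-fold lower in C6SPGFP, with an adjusted p of 0.00541 in limma, and its sign turned under the deposited scaling, where it was 0.30 against 1.11 for the median of all probe sets. In C6, Psmd11 changed with speed by 0.41 ± 0.13 (adjusted p = 0.115), in C6SPGFP by -0.24 ± 0.13 (adjusted p = 0.601), and the difference was -0.65 ± 0.18 (adjusted p = 0.115). The call in fast cells was kept without each of the 8 arrays in turn (adjusted p 0.0071 to 0.0466).

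With quantile-normalised signals of all 8 arrays, the remaining 19S subunits were not called in any comparison, apart from Psmc1. The 10 tested non-ATPase probe sets read 6 genes, with 3 each for Psmd1 (-0.35 to -0.05, log2, between the sets in fast cells) and Psmd4 (-0.20 to -0.02). In fast cells 9 of the 10 were lower in C6SPGFP by their means, with a median of -0.16, where 3550 of the 6684 probe sets had a negative change. The exception was Psmd10 (gankyrin, an assembly chaperone of the 19S base), at 0.71 ± 0.25 with an adjusted p of 0.098, on signals of 24.5 to 58.8. With arrays scaled to a common trimmed mean in place of quantile normalisation, Psmd10 was called higher in C6SPGFP (0.88, adjusted p = 0.0301). Psmd13, another lid subunit, was at -0.50 ± 0.19 (adjusted p = 0.126). Psmd2, a large scaffold subunit of the base, read 387 on C6SPGFP slow replicate 2 and 732 to 864 on the other 7 arrays. Its change was 0.58 ± 0.25 in C6SPGFP fast minus slow cells (adjusted p = 0.511) and -0.62 ± 0.25 between the sets in slow cells (adjusted p = 0.204). Without C6SPGFP slow replicate 1, which leaves that low array as the only one of its group, Psmd2 passed the threshold in both (0.0408 and 0.0226). The brightest probe set of this role was one of Psmd1, another base scaffold, with 848 to 1111 over the 8 arrays.

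Psmc1 encodes an ATPase of the 19S base, and was lower in fast C6SPGFP than fast C6 cells. Its signals were 801 and 717 in C6 slow, 845 and 704 in C6 fast, 622 and 714 in C6SPGFP slow and 517 and 549 in C6SPGFP fast cells. The C6SPGFP fast arrays were the lowest of the 8. The change was -0.53 ± 0.15 (log2, SE; 1.44-fold lower), with an adjusted p of 0.0451 in limma, and 0.60 under the deposited scaling. The call was lost without C6 fast replicate 1 (0.202) or 2 (0.0501), C6SPGFP slow replicate 1 (0.0684) or 2 (0.069), or C6SPGFP fast replicate 1 (0.183) or 2 (0.135). With speed in C6SPGFP, 5 of 6 ATPase probe sets, which read 5 genes, had negative changes (median -0.23), where 3526 of the 6684 probe sets did. The median deviation of the role was -0.06 and 0.13 on C6SPGFP slow replicates 1 and 2. It was -0.08 and -0.20 on C6SPGFP fast replicates 1 and 2. The largest of these changes was that of Psmc1 at -0.32 ± 0.15, and none of the 6 was called. In C6 the largest was that of a Psmc2 probe set, at -0.34 ± 0.17 (adjusted p = 0.331), and the largest between slow cells that of Psmc3 at 0.25 ± 0.17 (adjusted p = 0.454). Psmc3, the brightest of the role, read 671 to 977.

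The beta ring of the core had the narrowest range over the arrays by role median. Psmb5, which carries the chymotrypsin-like activity that Psmb8 takes over in the immunoproteasome, read 1622 to 2052 over the 8 arrays by D45247_g_at, its brightest probe set. In C6 fast cells 10 of 11 beta probe sets had negative changes, with a median of -0.11 (log2) and a range of -0.25 to 0.28. The positive one was Psmb1, a non-catalytic subunit, with 861 and 775 in C6 slow and 1032 and 957 in C6 fast cells (0.28 ± 0.13, adjusted p = 0.274). The beta probe sets were highest on C6 slow replicate 1 (median deviation 0.13, other arrays -0.11 to 0.08). Without that array 6 of the 11 changes were negative, with a median near 0 (-0.00094), and without C6 fast replicate 2 also 6, with a median of -0.09. In C6SPGFP the largest change with speed was that of a Psmb3 probe set, at -0.41 ± 0.16 (adjusted p = 0.425). Psmb2, which carries no active site, gave 380 to 510 in the C6 arrays by D21799_at, and 546 and 536 in C6SPGFP fast cells. That probe set had the largest change of the role between the sets in fast cells, at 0.42 ± 0.16 (adjusted p = 0.128), and for the difference, at 0.44 ± 0.23 (adjusted p = 0.428). In slow cells the largest was that of a Psmb5 probe set at -0.32 ± 0.12 (adjusted p = 0.162).

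The alpha ring had no call with all 8 arrays. Psma6, by its brightest probe set, read 820 to 1050 over the 8 arrays. The largest changes of the role in fast cells rested on a dim Psma5 probe set, rc_AA891383_i_at, with 28.8 and 26.4 in C6 fast and 3.0 and 16.5 in C6SPGFP fast cells. Its change between the sets in fast cells was -1.11 ± 0.36 (log2, SE; adjusted p = 0.0731). Without C6SPGFP fast replicate 2, which leaves the array with the signal of 3.0 alone in its group, it was -1.69 and passed the threshold (0.0138). The other Psma5 probe sets gave -0.47 ± 0.15 (adjusted p = 0.0769) and 0.16, so they differed in sign. The dim probe set was also the largest of the role with speed in C6 (0.33 ± 0.36, adjusted p = 0.701), in C6SPGFP (-0.75 ± 0.36, adjusted p = 0.548) and for the difference (-1.09 ± 0.51, adjusted p = 0.36). In slow cells the largest was that of Psma1, at -0.42 ± 0.17 (adjusted p = 0.192), where 10 of 12 alpha probe sets were negative with a median of -0.10. The alpha probe sets too were highest on C6 slow replicate 1 (median deviation 0.18), and without it 6 of 12 were negative in slow cells, with a median of -0.01. Without C6SPGFP slow replicate 1, 7 of 12 were negative (median -0.05).

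**Figure D4:**
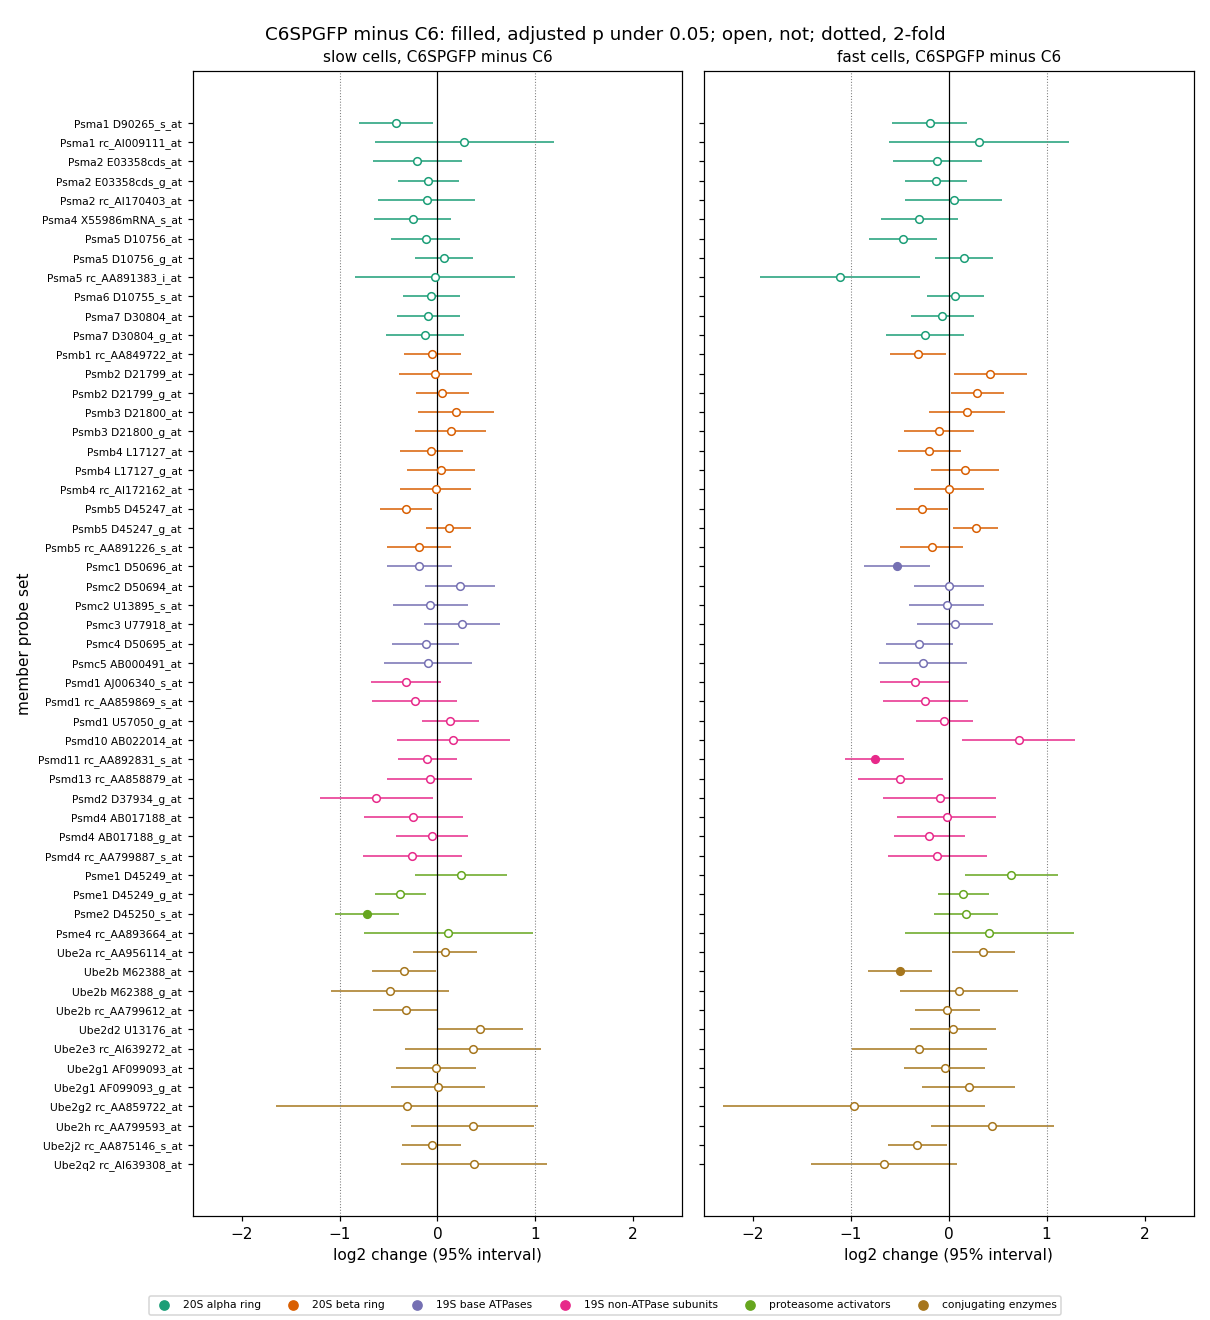
Points give the log2 change of C6SPGFP minus C6 for each tested member, left in slow and right in fast cells, with the 95% interval; filled points have an adjusted p under 0.05 and dotted lines mark 2-fold. Psme2 is the filled point on the left at -0.72, and Psmd11, Psmc1 and a Ube2b probe set are filled on the right at -0.76, -0.53 and -0.50.

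Of the conjugating enzymes, Ube2b, the partner of the ligase Rad18 in DNA damage tolerance, was lower in fast C6SPGFP than fast C6 cells by 1 of its 3 probe sets. That probe set, M62388_at, gave 317 and 350 in C6 slow, 403 and 409 in C6 fast, 266 and 256 in C6SPGFP slow and 286 and 283 in C6SPGFP fast cells. All 4 C6SPGFP arrays were below all 4 C6 arrays. The change in fast cells was -0.50 ± 0.14 (log2, SE; 1.41-fold lower), with an adjusted p of 0.0485 in limma, and 0.71 under the deposited scaling. In slow cells it was -0.34 ± 0.14 (adjusted p = 0.217). The other 2 probe sets gave 0.10 and -0.01 in fast cells, so they did not share it. The call was lost without C6 fast replicate 1 (0.121) or 2 (0.128), C6SPGFP slow replicate 1 (0.0875) or 2 (0.0868), or C6SPGFP fast replicate 1 (0.161) or 2 (0.189).

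No other conjugating enzyme was called. Ube2j2, an enzyme of degradation at the endoplasmic reticulum and the brightest of the role, read 770 to 859 in C6 and C6SPGFP slow arrays and 608 and 722 in C6SPGFP fast cells (-0.32 ± 0.13 between the sets in fast cells, adjusted p = 0.151). Ube2g2, which also serves that pathway, read 101 and 26.6 in C6 slow and 136 and 104 in C6 fast cells, the largest change of the role there at 1.04 ± 0.59 (adjusted p = 0.396). Its replicates differed by as much as its groups. Ube2q2 had the largest difference of the changes, at -1.03 ± 0.46 (adjusted p = 0.333), on signals of 8.68 to 30.5. Ube2e3 had the largest change with speed in C6SPGFP, at -0.41 ± 0.30 (adjusted p = 0.723), on signals of 3.71 to 12.4. A Ube2b probe set had the largest in slow cells, at -0.48 ± 0.26 (adjusted p = 0.346).

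Genes read by several probe sets give a second measure of how far small changes can be read. There were 14 such genes with several tested probe sets. They had the same sign in all probe sets for 12 genes in C6 fast minus slow cells, 8 in C6SPGFP fast minus slow cells, 6 for the difference, and 5 between the sets in slow and 5 in fast cells. The median gap between a gene's highest and lowest probe set ran from 0.09 (log2) in C6 to 0.29 between the sets in fast cells. In that last comparison Psma7 (-0.24 and -0.07), Psmb2 (0.29 and 0.42), Psmd1 (-0.35 to -0.05), Psmd4 (-0.20 to -0.02) and Psme1 (0.15 and 0.64) kept 1 sign. Psma1 (-0.20 and 0.31), Psma2 (-0.13 to 0.05), Psma5 (-1.11 to 0.16), Psmb3 (-0.10 and 0.18), Psmb4 (-0.20 to 0.17) and Psmb5 (-0.27 to 0.28) did not. Nor did Psmc2 (-0.02 and 0.00), Ube2b (-0.50 to 0.10) or Ube2g1 (-0.04 and 0.20). Probe sets of a gene share its transcript and arrays and are not replicates.

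Of 136 other genes listed for the pathway, 27 were tested by 40 probe sets. In C6 fast minus slow cells 1 of the 40 was called higher (Psmb8) and 4 lower, where 6.66% of all tested probe sets were called. The lower ones were 3 of the deubiquitinase Uchl1 (-0.65 to -0.74, log2) and 1 of the p53 ligase Mdm2 (-1.17). The other tested Mdm2 probe sets had no call there. Their means in slow and fast C6 cells were 220 and 225 for one, and 264 and 129 for the other. In C6SPGFP, 2 of the 40 were called higher with speed and 0 lower (background 1.39%): Psmb9 and the F-box protein Fbxo2, which binds glycoproteins. Fbxo2 read 44.5 to 52.0 in the C6 arrays, 107 in both C6SPGFP slow arrays and 338 and 262 in C6SPGFP fast cells. Its change between the sets in fast cells was 2.45 ± 0.20 (adjusted p = 9.18e-05 in limma) and held without each array in turn, and its change with speed in C6SPGFP was 1.41 ± 0.20 (adjusted p = 0.0113). Between the sets in slow cells 1 of the 40 was called higher in C6SPGFP and 2 lower (background 6.34%). Fbxo2 was higher there (1.01), and 2 Mdm2 probe sets were lower (-1.25 and -1.61). In fast cells 3 of the 40 were called higher in C6SPGFP and 6 lower (background 15.6%). The higher ones were Fbxo2 and 2 Uchl1 probe sets (0.63 and 0.42). There Psmb8 (-0.79), the segregase ATPase Vcp (-0.50 and -0.57) and 1 probe set of the ligase Huwe1 (-0.97) were lower. So were the deubiquitinase Atxn3 (-0.94) and the anaphase-promoting complex subunit Anapc5 (-0.49). The signs of those 6 lower changes turned under the deposited scaling. The other tested Huwe1 probe set, which had no call, read 328 and 197 in C6 fast and 206 and 189 in C6SPGFP fast cells. Apart from Fbxo2 in fast cells, each of these calls was lost without at least 1 array, with adjusted p from 0.0513 to 0.223 where lost.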

How the data were processed

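The authors deposited 1 signal per probe set and array, a linear intensity, from 0 to 14287.9, for 8799 probe sets including 59 controls. Neither the software behind the deposited intensity values nor detection calls were given in the sources used here. Of the probe sets, 7018 had 1 gene symbol, 308 several and 1473 none in the platform annotation. Symbols were updated through Entrez IDs to RefSeq's GRCr8 table, which changed the symbol of 0 members. Groups came from the titles. Members and gene lists were chosen with earlier results of these data known.

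Signals were quantile-normalised over 8 arrays and taken as log2(signal + 8). This pseudocount draws the changes of dim probe sets towards 0, and folds are of signal plus 8. A mean normalised signal of 8 or more was required for testing, which 6684 probe sets reached and 2056 did not. A model of 4 group means was fitted with limma 3.58.1 in R 4.3.3 (lmFit, eBayes with a trend, two-sided), with 4 residual and 4.49 prior degrees of freedom and Benjamini-Hochberg adjustment at 5% within each of 5 comparisons. The code was tested on simulated data. Named were members called in any comparison, the largest change of each role and comparison without a call, the brightest member of each role, genes with several probe sets, members below the filter, and every called gene of the pathway lists. Psmd13 was named after its values were seen. Alternatives changed the scaling, pseudocount (1, 32), filter, moderation and arrays in the fit, used the replicate number as a block, or left out each array in turn.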

Additional observations from a re-analysis of the deposited data

Results flagged for a closer look

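The change between fast and slow cells differed between the sets for Psme2, the beta subunit of the PA28 activator, by 0.89 (log2, C6SPGFP minus C6; interaction term in limma, adjusted p = 0.0483). It also differed for the F-box gene Fbxo2, by 1.43 (adjusted p = 0.0261). The Fbxo2 difference was called in 8 of 16 alternatives. It was lost when C6 fast replicate 2 (0.0781) was left out, and likewise for C6 slow replicate 1 (0.061) or 2 (0.0546), C6SPGFP slow replicate 1 (0.0908) or 2 (0.115), or C6SPGFP fast replicate 1 (0.116) or 2 (0.0514). The Psme2 difference was called in 3 of 16 alternatives and lost without each of the 8 arrays (0.0626 to 0.175). With groups of 2 arrays, no search for single arrays that stand apart was made.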

How the results depend on the processing

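In C6 fast minus slow cells 0 members were called in the reported analysis and in all 17 alternatives. The single member called in C6SPGFP fast minus slow cells became 0 under the deposited scaling, scaling to a common trimmed mean, a fit of only the groups compared, moderation without a trend and the replicate block. The single call for the difference of the changes became 0 under the deposited scaling, the common trimmed mean, a filter at the 50th percentile, no trend and the replicate block. The single call between the sets in slow cells became 0 under the deposited scaling and the fit of only the groups compared. The 3 calls in fast cells became 0 under the deposited scaling, and 1 (Psmd11) under the fit of only the groups compared, no trend and the replicate block. Under the common trimmed mean 2 were called there, Psmd11 lower and Psmd10 higher. Leaving out 1 array gave 0 to 1 calls in C6SPGFP fast minus slow cells, 0 for the difference, 0 to 1 in slow cells and 1 to 3 in fast cells. Counts can hide exchanges: without C6SPGFP fast replicate 2 the 3 fast-cell calls were Psmd11 and Psma5 lower and Psme1 higher, and without C6SPGFP slow replicate 1 the single calls with speed in C6SPGFP and in slow cells were Psmd2. The cause of these losses was not tested. The labels do not say whether arrays with the same replicate number belong together. Same-numbered arrays of 2 groups had deviations correlated at -0.13 to 0.27, the highest for C6 slow and C6 fast. The members' median deviation was 0.13 and 0.09 (log2) on replicate 1 of C6 slow and C6 fast. On replicate 2 of these groups it was -0.03 and -0.04. Whether same-numbered C6 arrays share an effect was not tested.

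Of the called members, Psmd11 kept its call in 16 of 17 alternatives, Psme2 in slow cells in 12 of 17, Psme1 in 6 of 17, Ube2b in 6 of 17, Psmc1 in 5 of 17 and the Psme2 difference in 3 of 16. Signs turned under 1 alternative, the deposited scaling, for C6SPGFP minus C6 in fast cells: Psmc1 0.60, Psmd11 0.30, Ube2b 0.71, Psmb8 0.39, Anapc5 0.55, Vcp 0.61 and 0.47, Huwe1 0.22 and Atxn3 0.25, where the median of all probe sets was 1.11. Over all probe sets that scaling gave 20 calls in C6 fast minus slow cells (445 as reported), 15 in C6SPGFP (93), 24 for the difference (255) and 2 in slow cells (424), all of them also called as reported, and 182 in fast cells (1042), 179 of them shared. The fit of only the groups compared gave 230 calls in C6 fast minus slow and 270 between the sets in slow cells. Under the deposited scaling the share higher among all calls rose from 76.3% to 100% in C6SPGFP fast minus slow cells. Between the sets in fast cells it rose from 53.2% to 94.0% under that scaling. With 2 arrays a group and signals of a few units not shown to be above background, changes of the dim members are poorly bounded.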
